A study of Mus musculus with 5 samples.

Results

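The distal end of mouse chromosome 10 was more densely covered by WT1 peaks than the rest of that chromosome. The segment described here is mm9 chr10:116000001-126400000, 10.4 Mb long. Its members are all peaks of the 4 deposited WT1 lists whose midpoint falls between those limits, 6378 of 622792 peaks in all. KTS-minus replicates 1 and 2 contributed 1437 and 3449 of them, and M15 replicates 1 and 2 contributed 130 and 1362. The limits had been drawn from the peak density and the covered share of these same lists, so a higher density inside them is a description and was not tested.

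WT1 binding was measured by CUT&RUN, in which an antibody directs a protein A-tethered nuclease to cut out the DNA beside the bound protein. KTS-minus cells (2 libraries) are M15 cells that the labels mark KTS-, and M15 cells (2 libraries) are a mouse line of mesonephric epithelium. Both are transformed with polyoma virus large T, and all 4 libraries used the WT1 antibody ab89901. The labels do not say how the KTS-minus cells were made, which isoform they keep or whether they are 1 clone. Nor do they say that replicates came from separate cultures, and the spread between replicates may be technical. An IgG library of M15 cells was not analysed here.

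The transcription factor WT1 binds DNA through zinc fingers and is needed for kidney and gonad development. Alternative splicing inserts or omits the residues lysine, threonine and serine between its last zinc fingers, and the form without them is the better known DNA binder. The segment includes the position given for Mdm2, near 117.1 Mb, and matches human 12q14-15. Mdm2 encodes the ubiquitin ligase that restrains p53. Human 12q14-15, with MDM2 and CDK4, is a stretch of the genome that is often present in extra copies in sarcomas. DNA copy number was not measured in these libraries, and more copies of a stretch cannot be told apart here from more WT1 on it.

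No gene was placed on mm9, because the gene table at hand belongs to another build, GRCm38. Its order of genes names the neighbourhood. All 25 genes listed for this neighbourhood were found on chromosome 10 of that build. In that order, Frs2 (an adaptor of fibroblast growth factor receptors), Yeats4, the lysozyme genes Lyz2 and Lyz1, and Cpm come before Mdm2. Rap1b, Mdm1, Ifng, Hmga2 (an architectural chromatin protein), Msrb3, Lemd3, Wif1 (a secreted Wnt inhibitor), Tbk1, Xpot, Srgap1, Avpr1a, Slc16a7 and Lrig3 follow it. Mettl1, Cyp27b1, Cdk4 (the cell-cycle kinase), Tspan31, Agap2 and Os9 close the list. Between Mdm2 and Cdk4 lie 42 protein-coding genes.

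RefSeq promoters of GRCm38 (250 bases before to 50 after the start) were found for 24 of the 25 genes. They were searched on both strands for GCGTGGGAG, a WT1 element, and for the EGR-type sites GCGTGGGCG and GCGGGGGCG, which the form without KTS also binds. Of all 32851 promoters, 0.47% hold the first, 0.61% the second and 2.91% the last. Among the 24, only Wif1 held one of them, GCGGGGGCG on the minus strand of its window. The promoters of Mdm2, the gene that locates the segment, and of Wif1 are shown, on chr10:117710709-117711008 (minus strand) and chr10:121033754-121034053 (plus strand) of GRCm38, with the match in capitals. These are descriptions of sequence, and no peak was assigned to either promoter.
Mdm2: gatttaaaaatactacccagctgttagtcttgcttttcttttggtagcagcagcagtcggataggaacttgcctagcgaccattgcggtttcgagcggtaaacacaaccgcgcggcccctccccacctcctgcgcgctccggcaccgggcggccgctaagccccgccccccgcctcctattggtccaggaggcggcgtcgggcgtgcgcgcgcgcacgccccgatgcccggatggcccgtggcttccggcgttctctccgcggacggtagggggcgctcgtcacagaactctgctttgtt
Wif1: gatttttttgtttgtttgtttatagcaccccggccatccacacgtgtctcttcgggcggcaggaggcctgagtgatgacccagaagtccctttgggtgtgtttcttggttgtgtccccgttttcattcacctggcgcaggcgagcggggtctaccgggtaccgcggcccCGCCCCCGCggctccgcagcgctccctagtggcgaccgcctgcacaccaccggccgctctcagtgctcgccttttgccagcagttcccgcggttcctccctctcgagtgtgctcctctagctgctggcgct

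The first question was how far the segment stands above the rest of its chromosome in each library. Peaks of KTS-minus replicates 1 and 2 covered 87.1% and 53.7% of it, against 7.62% and 3.86% of the rest of chromosome 10. In M15 replicates 1 and 2 the covered shares were 3.72% and 23.0% inside, against 0.55% and 1.35% of the rest. Every library was thus covered more densely inside than outside, by 11.4-fold and 13.9-fold in KTS-minus and by 6.72-fold and 17.0-fold in M15. The KTS-minus ratios lay between the M15 ratios, with means of 12.7 ± 1.74 in KTS-minus and 11.9 ± 7.29 in M15 (SD, n = 2 each). An exact permutation test of 2 libraries against 2 cannot go below p = 0.333, so no difference between the lines was tested.

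Peak number gave another order. KTS-minus replicate 1 listed 138 peaks per Mb in the segment, fewer than the 332 of KTS-minus replicate 2, although its covered share was larger. M15 replicates 1 and 2 listed 12.5 and 131 peaks per Mb. The rest of chromosome 10 held 60.7 and 47.4 peaks per Mb in KTS-minus and 1.93 and 9.58 in M15. All other chromosomes held 120 and 93.7 in KTS-minus and 2.42 and 23.3 in M15. Peaks in the segment were wide in KTS-minus replicate 1, with a median width of 2728 bp against 1042 bp in the rest of chromosome 10. In KTS-minus replicate 2 the medians were 1011 and 653 bp. M15 peaks differed less in width, with medians of 2362 and 1852 bp in replicate 1 and of 1120 and 1019 bp in replicate 2, inside the segment and in the rest.

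Summed signal per base, the authors' total signal of all listed peaks divided by the length of sequence, is not limited at full coverage as the covered share is. It was 8.61 and 5.82 in the segment in KTS-minus replicates 1 and 2 and 0.267 and 0.997 in M15 replicates 1 and 2, each in the library's own coverage units. Over the rest of chromosome 10 this was a ratio of 20.9 and 16.4 in KTS-minus and of 4.44 and 16.3 in M15. M15 replicate 1 had the lowest ratio, but its densest part lay beyond the right limit and counts as rest. With the rest taken without the stretch from 112.8 to 127.1 Mb, the ratios were 27.0 and 23.2 in KTS-minus. They were then 10.9 and 38.0 in M15. Mean coverage inside peaks, the total signal over the total width, was 9.88 and 10.8 in the segment in KTS-minus, against 5.41 and 9.20 in the rest. In M15 it was 7.18 and 4.33, against 10.9 and 4.53. By this width-weighted mean, peaks of the segment were higher than other chromosome 10 peaks in both KTS-minus libraries and lower in both M15 libraries. In KTS-minus replicate 2 the mean was 8.49 from 115.4 to 118.2 Mb, 9.21 from 118.2 to 124.5 Mb and 15.2 from 124.5 to 126.3 Mb. Its median mean coverage per peak was 9.08 in the segment and 8.95 in the rest, and its median max signal 24 and 21. For M15 replicate 2 the direction depended on the measure and on the rest chosen. Its median mean coverage per peak was 3.63 in the segment and 3.46 in the rest, its median max signal was 8 in both, and its ratio was 1.08 with the rest taken without the stretch from 112.8 to 127.1 Mb.

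**Figure D1:**
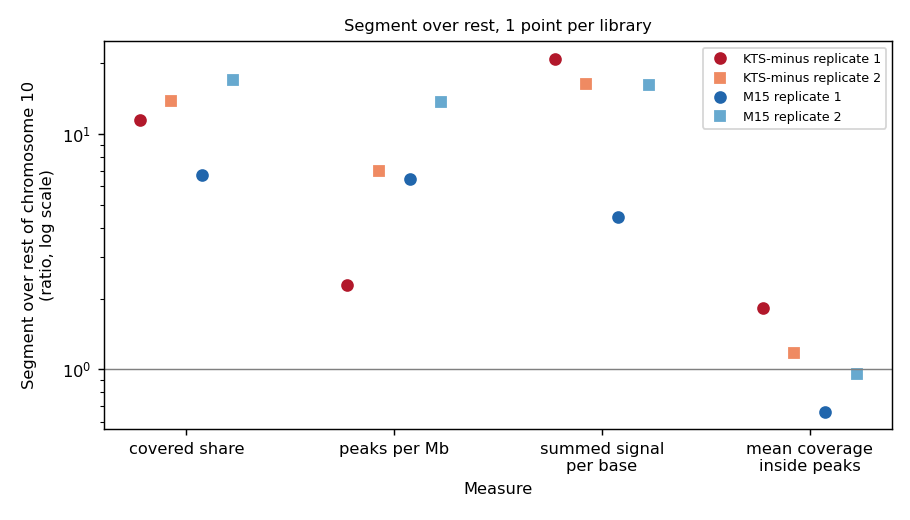
Ratio of the segment to the rest of chromosome 10 for 4 measures, on a log scale with 1 point per library and a grey line at equality. For covered share the points lie between 6.72 and 17.0, and for mean coverage inside peaks both KTS-minus points lie above 1 and both M15 points below it.

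The ratio depends on how many peaks a list holds. Each list was cut to the 6440 peaks with the highest max signal, as many as the shortest list holds. The covered share of the segment was then 156 and 44.0 times that of the rest in KTS-minus replicates 1 and 2, and 6.72 and 22.0 times in M15. It held 404 and 260 of the 6440 peaks in KTS-minus (6.27% and 4.04%) and 130 and 229 in M15 (2.02% and 3.56%), although it makes up 0.39% of the sequence. A call of at least 4 times the covered share of the rest was made on every 100 kb bin of chromosome 10. It was met by 11.5% and 11.2% of the 1300 bins in KTS-minus and by 6.08% and 9.77% in M15. Inside the segment 103 and 101 of 104 bins met it in KTS-minus, and 34 and 81 in M15. The limits had been chosen on this measure, so these counts only describe it.

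The second question was where the covered share steps up and where it ends. For each library alone, the pair of borders was found that best fits 3 levels of covered share to the 100 kb bins from 100 Mb to the end of chromosome 10. The dense part ran from 113.0 to 126.4 Mb in KTS-minus replicate 1 and from 113.9 to 126.6 Mb in replicate 2. In M15 it was shorter, from 126.2 to 127.1 Mb in replicate 1 and from 124.5 to 126.7 Mb in replicate 2. The right edges of all 4 libraries fell within 126.4 to 127.1 Mb, whereas the left edges lay at 113.45 ± 0.64 Mb in KTS-minus and at 125.35 ± 1.2 Mb in M15 (SD, n = 2 each). By peak number per bin, the left edge lay at 112.8 and 112.9 Mb in KTS-minus replicates 1 and 2, and at 125.3 and 113.8 Mb in M15 replicates 1 and 2, so that M15 replicate 2 came within 1 Mb of KTS-minus and M15 replicate 1 did not. By that measure the right edges of KTS-minus lay at 117.6 and 124.6 Mb. With summed signal per bin on a log2 scale, both KTS-minus libraries and M15 replicate 2 had their left edge at 112.8 Mb. M15 replicate 1 had it at 124.5 Mb.

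The left limit of 116 Mb was not an edge in any library. The 100 kb bin just inside it was covered to 68.7% and 16.4% in KTS-minus replicates 1 and 2 and the bin just outside to 75.1% and 25.8%. M15 replicate 1 had no peak in either bin, and M15 replicate 2 was covered to 5.41% inside and 2.19% outside. At the right limit, KTS-minus replicate 1 was covered to 100% just inside and 3.44% just outside, and KTS-minus replicate 2 to 16.1% and 18.6%. M15 replicate 1 showed no fall there, with 59.3% inside and 66.9% outside, and M15 replicate 2 had 65.1% and 37.2%.

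The profiles were also fitted with more borders, and such fits explain at least as much of the variance by construction. Fits of 6 borders explained 96.8% and 91.3% of the variance between bins in KTS-minus replicates 1 and 2 and 92.6% and 89.3% in M15, against 85.1%, 70.9%, 80.1% and 68.3% with 2 borders. The 6 borders of KTS-minus replicate 2 (A to F, at 112.8, 113.9, 115.4, 118.2, 124.5 and 126.3 Mb) and the right edge of M15 replicate 1 (G, at 127.1 Mb) were used as a common ruler. Several were met in the fits of other libraries without reference to each other. M15 replicate 2 had its own borders at 113.9, 115.4, 124.5 and 127.1 Mb, and KTS-minus replicate 1 at 112.8 Mb.

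**Figure D2:**
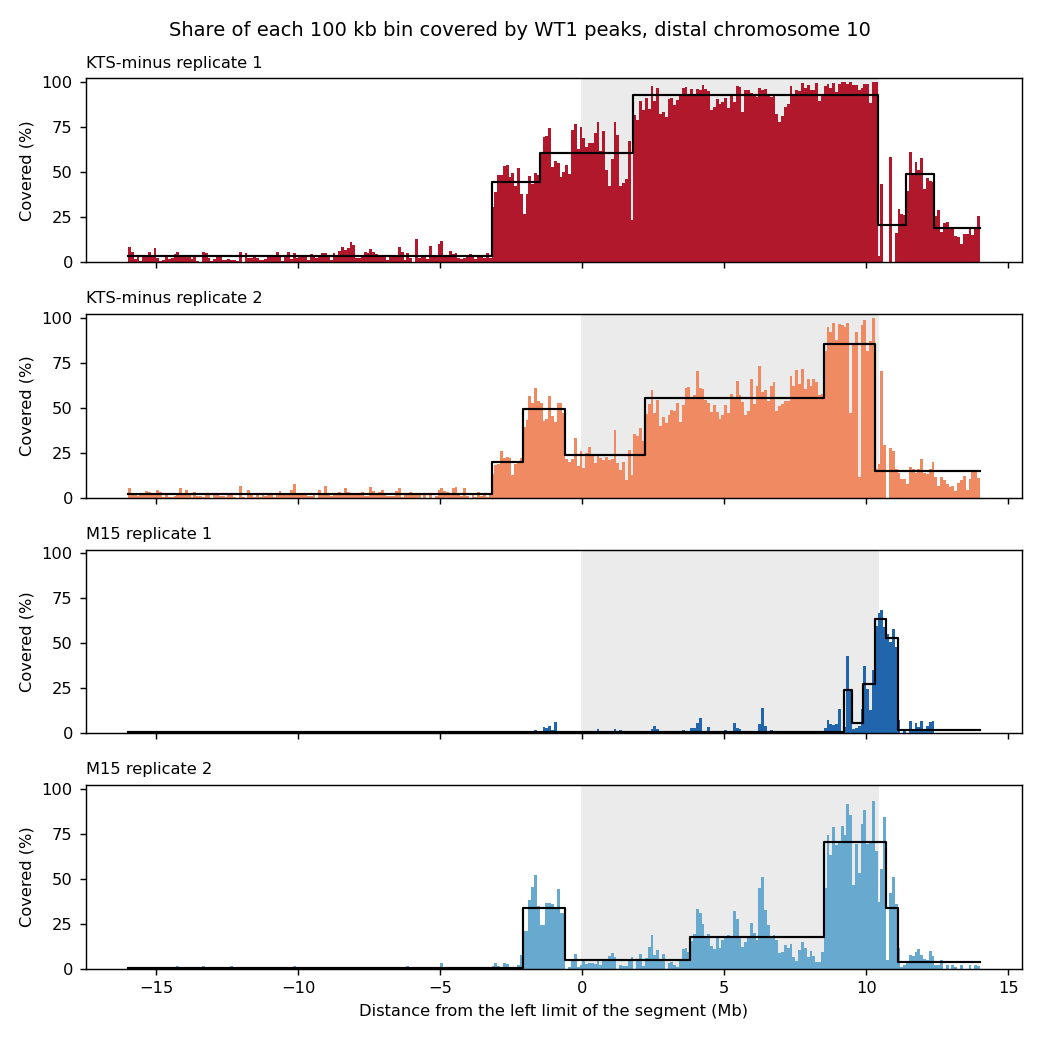
Share of each 100 kb bin covered by peaks (bars) and the fit with 6 borders (black line) in 4 panels, 1 per library, against the distance in Mb from the left limit of the segment, which is shaded. Coverage rises to the left of the shaded segment in the KTS-minus libraries, a separate block left of it is clear in KTS-minus replicate 2 and M15 replicate 2, and M15 replicate 1 is high mainly at the right end.

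Between A and G, 14.3 Mb or 11% of chromosome 10, lay 73.4% and 71.9% of the chromosome's listed signal in KTS-minus replicates 1 and 2 and 71.5% and 82.8% in M15 replicates 1 and 2. Peaks covered 76.0% and 48.0% of that stretch in KTS-minus, and 5.67% and 22.7% in M15. From 100 Mb to A the shares were 3.71% and 2.19% in KTS-minus and 0.01% and 0.23% in M15.

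Border A was a sharp step in KTS-minus. Refined on 10 kb bins, it lay at 112.84 Mb in replicate 1, with 43.9% covered in the 200 kb after it and 3.73% in the 200 kb before. It lay at 112.85 Mb in KTS-minus replicate 2, with 18.3% and 2.07%. M15 replicate 2 had its largest step at 112.82 Mb, but only 2.74% of the sequence after it was covered, against 0 before. M15 replicate 1 listed no peak from A to B.

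The stretch from B to C, 1.5 Mb left of the segment, stood out in 3 of the 4 libraries. It was covered to 49.4% in KTS-minus replicate 2, against 19.6% and 23.7% in the stretches before and after it. In M15 replicate 2 it was covered to 34.0%, against 2.21% and 3.83%. In M15 replicate 1 it was covered to 1.38% by 8 peaks, against 0 and 0.29%. Border C lay at 115.38 Mb in KTS-minus replicate 2 and 115.39 Mb in M15 replicate 2. In KTS-minus replicate 1 the covered share did not fall there: it was 45.7%, 52.6% and 64.2% from A to B, B to C and C to D. The block was thus present in both lines and absent from the covered share of 1 KTS-minus library.

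From C to D, the stretch that holds the position given for Mdm2, the segment was at its thinnest. Its covered share was 64.2% and 23.7% in KTS-minus replicates 1 and 2, and 0.29% and 3.83% in M15 replicates 1 and 2. The 100 kb bin just after 117.1 Mb had 78.1% and 37.5% of its bases in KTS-minus peaks and 2.50% and 6.43% in M15 peaks. The bin just before it had 57.3% and 21.5% in KTS-minus peaks, and 0 and 8.88% in M15 peaks. In the bin after 117.1 Mb, M15 replicate 1 had 2 peaks with a mean coverage of 9.46. The 3 bins of the segment with the lowest mean rank over the libraries lay next to it, from 117200001 to 117300000 and from 117400001 to 117600000. In the lowest, from 117500001 to 117600000, KTS-minus replicates 1 and 2 were still covered to 46.2% and 9.63%, M15 replicate 1 had no peak and M15 replicate 2 had 1. The longest stretch of the segment without a peak in M15 replicate 2, from 117195939 to 117342868, was also here. KTS-minus replicates 1 and 2 covered 64.1% and 18.2% of that stretch, with 38 and 30 peaks.

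Border D lay at 117.91 Mb in KTS-minus replicate 1, where the covered share was 85.1% after and 53.2% before, and at 118.24 Mb in KTS-minus replicate 2, with 54.6% and 34.2%. It lay at 118.30 Mb in M15 replicate 2, with 15.4% after and 4.01% before. These positions were sought only within 300 kb of 118.2 Mb, a border of KTS-minus replicate 2, so their distances from each other are not compared. In its own fit with 6 borders, KTS-minus replicate 1 had a border at 117.8 Mb. M15 replicate 2 had none between 115.4 and 119.8 Mb in its own. Just before border D, KTS-minus replicate 1 had its longest stretch of the segment without a peak, 38798 bp from 117724185 to 117762982, and the other 3 libraries covered at most 0.12% of it.

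From D to E, the longest part with 6.3 Mb, peaks covered 91.9% and 55.6% in KTS-minus and 1.18% and 14.8% in M15. Over its 63 bins, covered share correlated with Pearson's r = 0.65 and Spearman's rho = 0.68 between the KTS-minus libraries and with r = 0.75 and rho = 0.58 between the M15 libraries. Between lines r was 0.20 to 0.37 and rho 0.18 to 0.34. Over all 104 bins of the segment, pairs within a line were not always above pairs between lines. There r was 0.725 within KTS-minus, 0.696 within M15 and 0.272 to 0.702 between lines. The values of rho were 0.781, 0.693 and 0.421 to 0.716. Mean coverage inside peaks from D to E did not rank pairs within a line first either. Its r was 0.51 between the KTS-minus libraries and 0.53 between the M15 libraries over the 20 bins with peaks in both. It was 0.60 between KTS-minus replicate 2 and M15 replicate 2 over 62 bins. Bins are neighbours on 1 chromosome and share base composition and mappability, and KTS-minus replicate 1 was close to full coverage, so no p is given. The bins from 120000001 to 120100000 and from 122300001 to 122400000 were among the 3 most covered in both M15 libraries. From 122300001 to 122400000, KTS-minus replicates 1 and 2 were covered to 95.4% and 58.5%, against 13.8% and 51.0% in M15 replicates 1 and 2.

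The highest segment peaks of KTS-minus replicate 2 and M15 replicate 2 lay here, and each was met by a peak in all other lists. The peak with the highest max signal of KTS-minus replicate 2 in the segment, from 121339043 to 121343883, reached 218 there and 71 in KTS-minus replicate 1, against 127 and 52 in M15 replicates 1 and 2. At the corresponding peak of M15 replicate 2, from 120153024 to 120154982, the max signal was 72 and 79 in KTS-minus replicates 1 and 2, against 122 and 66 in M15 replicates 1 and 2. The longest stretch of the segment without a peak in M15 replicate 1, 1949293 bp from 122639708 to 124589000, ended at the next step. There KTS-minus replicates 1 and 2 had 238 and 844 peaks and M15 replicate 2 had 208.

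Border E was a step up in summed signal in all 4 libraries. By covered share it lay at 124.53 Mb in KTS-minus replicate 2, at 124.59 Mb in M15 replicate 1 and at 124.54 Mb in M15 replicate 2. KTS-minus replicate 1 was nearly full on both sides, with 91.3% before and 98.3% after 124.5 Mb, and its largest step in covered share near E was a fall at 124.32 Mb, to 91.3% after and 98.4% before. In summed signal per base its largest step lay at 124.53 Mb, where the value after was 12.3 and the value before 8.33. By that measure the step was to 12.5 from 5.23 in KTS-minus replicate 2, to 0.321 from 0.0211 in M15 replicate 1 and to 3.11 from 0.277 in M15 replicate 2. By summed signal the 4 positions fell within 124.53 to 124.59 Mb.

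From E to F, 1.8 Mb, the covered share reached 97.8% and 85.3% in KTS-minus and 13.5% and 72.3% in M15. The 3 bins of the segment with the highest mean rank over the libraries all lay here. From 126200001 to 126300000, KTS-minus replicates 1 and 2 were covered to 100% each, by 1 peak that ran across the bin, and M15 replicates 1 and 2 to 35.2% and 93.1%. Mean coverage inside peaks was 16.2 and 15.2 from E to F in KTS-minus, against 8.50 and 9.21 from D to E. In M15 replicate 2 it was 4.83 against 3.49. M15 replicate 1 went the other way, with 5.15 against 11.0, and the median max signal of its 80 peaks there was 13, against 39 over its 38 peaks from D to E.

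**Figure D3:**
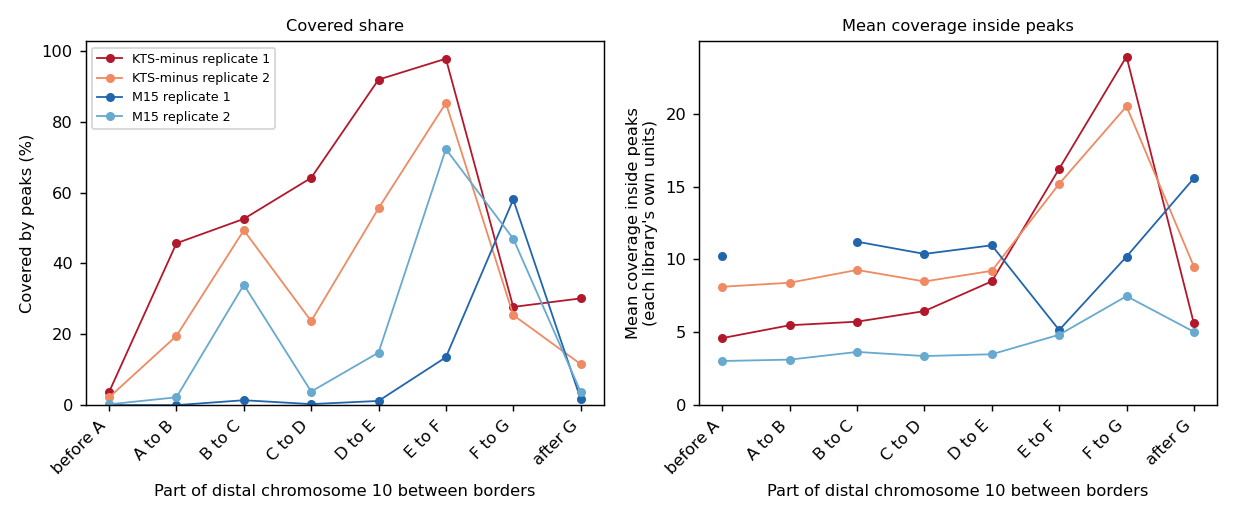
Covered share in percent (left) and mean coverage inside peaks in each library's own units (right) for the 8 parts of distal chromosome 10 that the borders A to G delimit, with 1 line per library. KTS-minus coverage peaks at 97.8% and 85.3% from E to F, while mean coverage inside peaks is highest from F to G in both KTS-minus libraries and in M15 replicate 2; M15 replicate 1 has no peak from A to B and its point is missing there.

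The right end was not a single edge. The dense run of KTS-minus replicate 1 stopped at the end of its widest peak of the segment, 212135 bp from 126191301 to 126403435. That of KTS-minus replicate 2 stopped at the end of a peak of 160595 bp from 126147840 to 126308434, the widest of its whole list. M15 replicate 2 fell at 126.36 Mb, to 30.1% after it and 92.7% before. M15 replicate 1 rose at 126.34 Mb, to 76.5% after and 28.8% before, and fell at 127.06 Mb, to 6.21% after and 61.4% before.

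Between F and G, KTS-minus was the more sparsely covered line, the reverse of every part from A to F. F is a border where the cover of KTS-minus replicate 2 fell, and G is the right edge of M15 replicate 1. The choice of these borders thus fixes part of this contrast, which was not tested. Peaks covered 27.7% and 25.4% of these 0.8 Mb in KTS-minus replicates 1 and 2 and 58.1% and 47.0% in M15 replicates 1 and 2. The KTS-minus cover consisted of few peaks: 11 and 23 had their midpoint here, against 85 and 32 in M15. Stretches of at least 10 kb without a peak numbered 3 and 6 in KTS-minus, with 566297 and 573676 bp in sum, and 5 and 11 in M15, with 93475 and 403688 bp. The longest was 218891 bp in KTS-minus replicate 1 and 243163 bp in KTS-minus replicate 2, against 28673 and 59153 bp in M15. Both KTS-minus libraries lacked a peak over 443 kb, of which M15 peaks of either replicate covered 75.8%, slightly less than the 80.0% they covered of the whole stretch from F to G.

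Between F and G, the KTS-minus libraries had their highest width-weighted mean coverage inside peaks among the parts from 100 Mb on. It was 23.9 and 20.5 there, against 16.2 and 15.2 from E to F, and 10.2 and 7.48 in M15. This rested on few wide peaks: the median max signal of KTS-minus replicate 1 was 17 from F to G, against 43 from E to F, and 9 of its 11 peaks lay in the last 100 kb, where mean coverage was 6.51. In KTS-minus replicate 2 the medians were 47 and 42. A peak of 43509 bp in KTS-minus replicate 1, from 126542327 to 126585835, had a mean coverage of 26.1. In KTS-minus replicate 2 a peak of 37910 bp, from 126547432 to 126585341, had 23.3, and its right end lay within 1 kb of the other. In M15 replicate 2, a peak from 126547425 to 126582562 had 8.19. Long stretches without a listed peak thus lay between wide peaks of high mean coverage. Whether those stretches lacked reads, could not be mapped or did not pass the peak caller was not tested, since the lists hold no coverage outside peaks.

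Around G the measures did not move together. A stretch without a peak ended at 127071799 and 127062375 in KTS-minus replicates 1 and 2, after 208515 and 95654 bp. In M15 replicates 1 and 2 such stretches ended at 127078784 and 127061943, after 19044 and 38527 bp. These were chosen after their values were seen. The flanking peaks had a mean coverage of 5.13 after and 26.4 before in KTS-minus replicate 1, and of 8.65 and 22.1 in KTS-minus replicate 2. In M15 they had 7.003 after and 28.6 before in replicate 1, and 5.48 and 8.11 in replicate 2. M15 replicates 1 and 2 had a further stretch of at least 10 kb without a peak before 127.1 Mb, and across it the mean coverage of the flanking peaks was higher after it, at 16.0 against 7.003 in replicate 1 and at 6.07 against 2.38 in replicate 2. By 100 kb bins, mean coverage inside peaks was also higher just after 127.1 Mb than just before, at 9.90 against 6.51 in KTS-minus replicate 1 and 23.4 against 12.2 in KTS-minus replicate 2. In M15 it was 40.6 against 16.1 in replicate 1 and 13.1 against 7.23 in replicate 2. Over the whole stretch beyond G, mean coverage inside peaks was 5.60 and 9.51 in KTS-minus, below the values from F to G. In M15 replicate 1 it was 15.6, above its value from F to G, and in M15 replicate 2 it was 5.03, below it. Beyond G to the last peak the covered share was 30.1% and 11.6% in KTS-minus and 1.79% and 3.80% in M15, each above the level from 100 Mb to A.

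**Figure D4:**
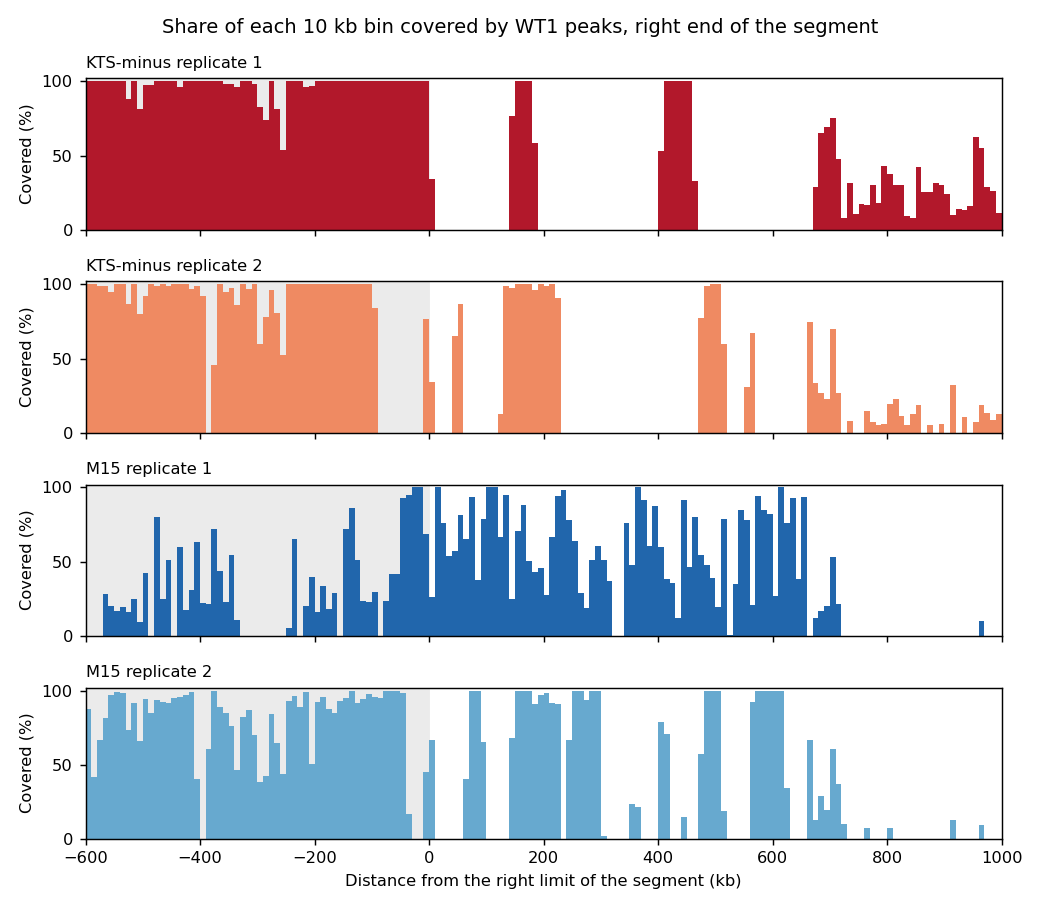
Share of each 10 kb bin covered by peaks in 4 panels, 1 per library, against the distance in kb from the right limit of the segment, with the segment shaded. The KTS-minus panels are nearly full up to the limit (replicate 1) or shortly before it (replicate 2) and then broken by long empty stretches, M15 replicate 1 is filled mainly to the right of the limit, and both M15 panels fall to a low level at about the place where KTS-minus peaks start again.

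Many of the widest peaks of the lists lay in the segment or just beyond it. Of the 20 widest peaks of each whole list, 13 and 13 lay in the segment in KTS-minus replicates 1 and 2 and 2 and 10 in M15. Another 1 and 4 in KTS-minus and 14 and 6 in M15 lay between 126.4 Mb and G. Of all peaks of at least 10 kb, the segment held 205 of 752 and 43 of 105 in KTS-minus replicates 1 and 2, and 2 of 16 and 16 of 33 in M15 replicates 1 and 2. Of peaks of any width it held 0.46% and 1.41% in KTS-minus and 2.02% and 2.24% in M15. Peak width enters the covered share, on which the limits were drawn, so these counts only describe the segment. The widest peak of KTS-minus replicate 1, 252091 bp, was on chromosome X. The widest peak of M15 replicate 1, from 126492110 to 126521313, and that of M15 replicate 2, from 126960790 to 127023416, both lay on chromosome 10. They fell between 126.4 Mb and G, beyond the segment.

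The last comparison asked how far the lists place their peaks on the same sequence inside the segment. All 130 segment peaks of M15 replicate 1 were overlapped by at least 1 bp by KTS-minus replicate 1 (95% Wilson interval 97.1 to 100%), and 120 by KTS-minus replicate 2 (92.3%, 86.4 to 95.8). Of the 1362 of M15 replicate 2, 98.6% and 87.7% were overlapped by KTS-minus replicates 1 and 2. The KTS-minus peaks covered 87.1% and 53.7% of the segment, and such overlaps are read beside that cover. In the rest of chromosome 10, where KTS-minus covered 7.62% and 3.86%, 70.1% and 73.6% of the M15 replicate 1 peaks were overlapped. In the other direction, M15 replicates 1 and 2 overlapped 4.31% and 35.1% of the segment peaks of KTS-minus replicate 1, and 2.73% and 29.7% of those of KTS-minus replicate 2. These shares are read beside the M15 cover of the segment, 3.72% and 23.0%. In the rest of chromosome 10, where M15 covered 0.55% and 1.35%, they were 2.14% and 10.4% for KTS-minus replicate 1. For KTS-minus replicate 2 they were 3.16% and 14.1% there. Within KTS-minus, 78.3% of the segment peaks of replicate 1 met a peak of replicate 2, against 23.1% in the rest of chromosome 10. Of the replicate 2 peaks, 96.8% met replicate 1, against 32.8% in the rest. Within M15, 96.9% of the 130 segment peaks of replicate 1 met a peak of replicate 2, against 79.2% in the rest. Only 9.54% of the 1362 segment peaks of M15 replicate 2 met a peak of M15 replicate 1, against 14.1% in the rest. With a reciprocal overlap of 50% the mean of the KTS-minus pair was 10.9%, against 87.5% with 1 bp. The stricter share also depends on peak width, and the median widths in the segment were 2728 and 1011 bp.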

How the data were processed

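The 4 deposited WT1 peak lists hold, per peak, the total signal and the max signal, which are coverage values made by the authors. SEACR 1.3, bedtools 2.23.0, SAMtools 1.3, Picard 2.5.0, Bowtie2 2.2.6, FastQC 0.11.8 and the build mm9 are named, with no role or order, in the submitters' processing notes. Each library has a list of its own. No source used here states the scaling, the control or the peak threshold, or whether the yeast spike-in was used. All signal values were whole numbers. Read depth is unknown, so values are compared inside a library or as ratios. Wilson intervals cover counting error only.

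Peaks were assigned to the segment by midpoint. Covered share was the clipped peak length per bin of 100 or 10 kb. The rest of chromosome 10 runs to the last listed base, 129993183, and no peak starts before 3019896. Borders were fitted by least squares with at least 5 bins in each part for 2 borders and 3 for more, and refined within 300 kb by the largest difference between flanks of 200 kb. The fit with 3 borders was tested on a simulated list with 3 known borders, and the fits with 2 and 6 borders were not. The 6-border fits, common borders and refinement by signal were chosen after seeing the data. Named regions were the bins at the edges and limits, the 3 bins of highest and lowest mean rank, the highest and widest peak and the longest empty stretch of each list; other named places were chosen after their values were seen. The members and lists were chosen with earlier results of these data known. Computation used Python 3.11.15, numpy 2.4.6, pandas 2.3.3, scipy 1.17.1 and matplotlib 3.10.9.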

Additional observations from a re-analysis of the deposited data

Results flagged for a closer look

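Mean coverage inside peaks, segment over the rest of chromosome 10, was above 1 in both KTS-minus libraries (1.83 and 1.18) and below 1 in both M15 libraries (0.66 and 0.96), a difference of 0.69 between the line means that was not tested. With all other chromosomes as the rest, M15 replicate 2 was also above 1, at 1.18. At equal list length both KTS-minus libraries were below 1, at 0.88 each.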

How the results depend on the processing

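No paired analysis was possible because no result comes from a test, and no label says that a replicate number marks a shared batch. Besides leaving out libraries, 51 alternative values moved by less than 1 SD, 28 moved by more, and 2 crossed a ratio of 1. The SD was taken between the 2 libraries of a line, and for overlaps between the directed pairs of lists. The rest without the stretch from A to G was an alternative chosen after seeing the data.

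The KTS-minus covered-share ratio of 12.7 became 20.6 with the 50% of peaks of highest total signal, 99.8 at equal list length, 6.19 against all other chromosomes, 14.5 within each library's own edges and 16.2 with the rest taken without A to G. The M15 ratio of 11.9 became 83.5 within own edges and 26.6 without A to G. The KTS-minus peak-number ratio of 4.64 became 8.57 with the stricter list and 26.8 at equal length, and the M15 ratio of 10.1 became 32.4 within own edges and 15.9 without A to G. The mean-coverage ratio crossed 1 in KTS-minus at equal length (0.88) and in M15 within own edges (1.21). The KTS-minus ratio of summed signal per base, 18.6, became 28.5 with the stricter list, 88.1 at equal length, 9.34 against other chromosomes and 25.1 without A to G. In M15, where it was 10.35, it became 94.5 within own edges and 24.4 without A to G.

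The KTS-minus left edge of 113.45 Mb moved to 112.8 Mb by log2 signal and to 116.35 Mb with the stricter list, and the M15 left edge of 125.35 Mb to 119.55 Mb by peak number and 118.65 Mb by log2 signal. These M15 means lay between distant edges of replicates 1 and 2. The edges were 125.3 and 113.8 Mb by peak number, and 124.5 and 112.8 Mb by log2 signal. The KTS-minus right edge of 126.5 Mb moved to 121.1 Mb by peak number and 126.65 Mb by log2 signal, and the M15 right edge of 126.9 Mb to 128.55 Mb by log2 signal. Overlap between KTS-minus replicates, 87.5%, became 10.9% with 50% reciprocal overlap and 6.37% for the stretches of highest signal. Between lines 56.3% became 8.88% and 4.47%. Between M15 replicates 53.2% became 23.6% and 7.16%. Those M15 changes were below 1 SD only because the SD between the directions of overlap was 61.8. The causes were not tested.

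Leaving out either library leaves the value of the other. For KTS-minus and M15 in turn, this gave 11.4 to 13.9 and 6.72 to 17.0 for covered share, 2.28 to 6.99 and 6.47 to 13.7 for peak number, 1.18 to 1.83 and 0.66 to 0.96 for mean coverage, and 16.4 to 20.9 and 4.44 to 16.3 for signal per base. Left edges were 113.0 to 113.9 and 124.5 to 126.2 Mb, and right edges 126.4 to 126.6 and 126.7 to 127.1 Mb. With 2 libraries a line and unknown read depth, a covered share near 100% or near 0 limits what can be read, as from D to F in KTS-minus replicate 1 and left of E in M15 replicate 1.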
